A study of Homo sapiens with 4 samples.

Results

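The SLC25 family of mitochondrial carriers was examined in RNA of flank tumors of A549, a human non-small cell lung cancer cell line, grown as xenografts in nude mice. Members were chosen by name alone, as every gene whose symbol is SLC25A followed by a number, with no expression value used, and 48 of the 38137 genes in the files met this rule. The groups were a combination of aerobic exercise and radiation, radiation alone, aerobic exercise alone, and a control with neither. All hosts were male BALB/c athymic nude mice, 6 weeks old at the start, which lack a thymus and still have a mouse stroma, vessels and innate immune cells. Radiation was X-rays at 2 Gy per session on the tumor, and mice exercised on a treadmill for 30 min at a belt speed of 8.0 m/min, each agent given in 3 sessions per week for 2 weeks. Each group had 5 mice and 1 RNA-seq library, and whether a library held 1 tumor or several is not given in the sources used here.

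With 1 library per group nothing measures the spread between tumors, so no p-value or standard error is given. Reads assigned to genes totalled 33432637 in the combination, 35408705 with radiation, 34304760 with exercise and 34602535 in the control. Levels are CPM, read counts relative to library size, after TMM scaling, which sets libraries to a common scale from the bulk of the genes. A ratio between libraries carries an exact 95% Clopper-Pearson interval, which covers counting error only. A difference of 2-fold was the threshold the study used between groups, and it was applied here to genes with a mean of at least 20 reads over the 4 libraries, which 44 of the 48 members and 19393 genes in all passed. In whole tumors, fewer cells of a type and less RNA per cell cannot be told apart. Reads were aligned to the human genome, and how mouse reads were handled is not given in the sources used here. So reads on markers of cells other than A549 may come from A549 cells or from mouse RNA, which were not separated. The 10 markers of A549 and epithelial cells were above 3 reads in every library, with summed levels of 12903 to 14013 CPM. The 12 fibroblast markers summed to 206 CPM in the combination, 251 with radiation, 376 with exercise and 368 in the control, and 5 of the 9 that passed the minimum were 2-fold lower in the combination than in the control (beside 1.77% of all genes tested). The 16 macrophage and neutrophil markers summed to 498 CPM in the combination, 432 with radiation, 366 with exercise and 376 in the control. In the combination, 3 of the 6 past the minimum (CD14, CD68 and LYZ) were 2-fold above the control (beside 2.27% of all genes tested). Another 2 of the 6 were lower in the combination than in the control. CSF1R, with the most reads of the list, had 251 CPM in the combination against 278 in the control, and ITGAM had 6.17 against 7.09. C1QA, C1QB, C1QC, S100A8 and FCGR3A were at 0 in every library. The part of these cell types in the SLC25 ratios was not tested.

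SLC25 proteins sit almost entirely in the inner mitochondrial membrane and move metabolites that cannot cross it freely. They exchange ATP for ADP, import phosphate, pass citrate, malate, glutamate and aspartate between matrix and cytosol, and bring in acylcarnitines, iron, glutathione and cofactors. The adenine nucleotide translocases, or ANTs, which trade matrix ATP for cytosolic ADP, also take part in proton leak and have long been discussed as parts or regulators of the permeability transition pore. SLC25A4 (ANT1) is the heart and muscle isoform, SLC25A5 (ANT2) that of dividing cells, SLC25A6 (ANT3) is found in most tissues, and SLC25A31 (ANT4) is known mainly from testis.

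The 4 ANT genes differ in the DNA just before their start sites, and these windows are shown because their levels in the tumors lay far apart. Whether the sequences have a part in these levels was not tested. Each window is the 250 bases upstream of the RefSeq start on GRCh38.p14, 5′ to 3′ on the strand of the gene. SLC25A31 is shown at chr4:127730150-127730399 (plus strand), SLC25A4 at chr4:185143016-185143265 (plus strand), SLC25A5 at chrX:119468194-119468443 (plus strand) and SLC25A6 at chrX:1392114-1392363 (minus strand). Capitals mark the GC box (letters GGGCGG), the CCAAT box (its own letters), the E-box (letters CACGTG) and a TATA motif (letters TATAAA), on either strand and without overlap between motifs.
SLC25A31: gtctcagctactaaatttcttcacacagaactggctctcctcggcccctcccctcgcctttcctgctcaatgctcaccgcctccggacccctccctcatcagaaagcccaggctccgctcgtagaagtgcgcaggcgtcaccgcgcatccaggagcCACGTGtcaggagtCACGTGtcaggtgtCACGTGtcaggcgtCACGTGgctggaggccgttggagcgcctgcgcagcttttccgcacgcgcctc
SLC25A4: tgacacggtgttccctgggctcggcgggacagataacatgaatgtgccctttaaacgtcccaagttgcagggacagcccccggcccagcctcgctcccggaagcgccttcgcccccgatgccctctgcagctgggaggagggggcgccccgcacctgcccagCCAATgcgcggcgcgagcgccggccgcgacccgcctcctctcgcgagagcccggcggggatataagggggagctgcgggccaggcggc
SLC25A5: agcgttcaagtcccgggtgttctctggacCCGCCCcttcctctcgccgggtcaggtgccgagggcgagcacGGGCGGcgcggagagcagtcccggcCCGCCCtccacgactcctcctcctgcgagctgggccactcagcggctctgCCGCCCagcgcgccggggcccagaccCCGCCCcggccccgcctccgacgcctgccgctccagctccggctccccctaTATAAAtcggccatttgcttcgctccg
SLC25A6: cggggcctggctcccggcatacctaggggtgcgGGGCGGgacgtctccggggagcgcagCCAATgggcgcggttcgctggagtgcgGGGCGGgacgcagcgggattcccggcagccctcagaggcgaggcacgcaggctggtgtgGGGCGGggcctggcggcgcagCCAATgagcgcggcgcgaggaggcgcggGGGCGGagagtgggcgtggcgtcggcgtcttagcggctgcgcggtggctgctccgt

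The SLC25A31 window held 4 E-boxes in a short tandem repeat and none of the other 3 marked motifs. At least 4 E-boxes were present in 5 of 27305 RefSeq promoter windows of the same length, or 0.0183%. The motifs were chosen after the windows were seen, and 4 is the number in the SLC25A31 window itself, so this share is a description. SLC25A5 had 5 GC boxes and 1 TATAAA, SLC25A6 had 4 GC boxes and 2 CCAAT boxes, and SLC25A4 had 1 CCAAT box. The windows were all rich in G and C, at 63.2% for SLC25A31, 71.6% for SLC25A4, 73.6% for SLC25A5 and 76.8% for SLC25A6. Of the 40 members matched in the promoter table, 28 (70.0%) held a GC box, against 42.3% of all windows. A CCAAT box was found in 18 of the 40 (45%), against 33.0%, and an E-box in 7 (17.5%), SLC25A31 among them, against 6.49%. TATAAA was present in 3 members (7.5%), against 11.1% of all windows, and the palindromic NRF1 motif in 0 of 40, against 1.13%. The windows of all genes were not matched to the members by gene type or level, so these shares cannot be read as particular to the family. These are matches of letters on both strands, which are no evidence that a factor binds.

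The family as a whole took a similar part of the RNA in each library. Its 48 members held 0.202% of reads in the combination, 0.211% with radiation, 0.213% with exercise and 0.214% in the control. Summed levels were 2067 CPM in the combination, 2153 with radiation, 2120 with exercise and 2073 in the control. The sum in the combination was 0.997 times that in the control (0.987 to 1.01) and 0.960 times that with radiation alone (0.95 to 0.97). The radiation sum was 1.04 times the control (1.03 to 1.05) and the exercise sum 1.02 times (1.01 to 1.03), and these turned to 0.989 and 0.998 when libraries were scaled by total counts. SLC25A29, a carrier of basic amino acids, had the most reads of any member, 19.0% to 21.6% of the family. Without it the combination was 0.985 times radiation, and radiation 1.01 times the control.

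Per kilobase of exon, which takes account of gene length, the housekeeping ANTs came first. The length merges the exons of all annotated transcripts, 8896 bases for SLC25A3 and 1500 for SLC25A5, so the order depends on the annotation. By mean CPM alone, SLC25A3 at 233 lay above SLC25A6 at 206 and SLC25A5 at 158. SLC25A5 averaged 105 CPM per kilobase and SLC25A6 averaged 95.1, followed by SLC25A29 at 56.3, the phosphate carrier SLC25A3 at 26.2 and SLC25A39, linked to mitochondrial glutathione import, at 20.4. SLC25A39 and the NAD carrier SLC25A51, also at 20.4, could not be put in order. SLC25A4 stood at 5.12, the 27th of 48, and SLC25A31 at 0.0679, the 46th. Per kilobase of gene span, introns included, SLC25A5 and SLC25A6 again came first, but SLC25A4 was 8th and SLC25A31 the 47th. Whether reads in introns were counted is not given in the sources used here, so the order between genes is uncertain. So on either scale the genes that carry ADP and ATP spanned nearly the whole range of the family.

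**Figure D1:**
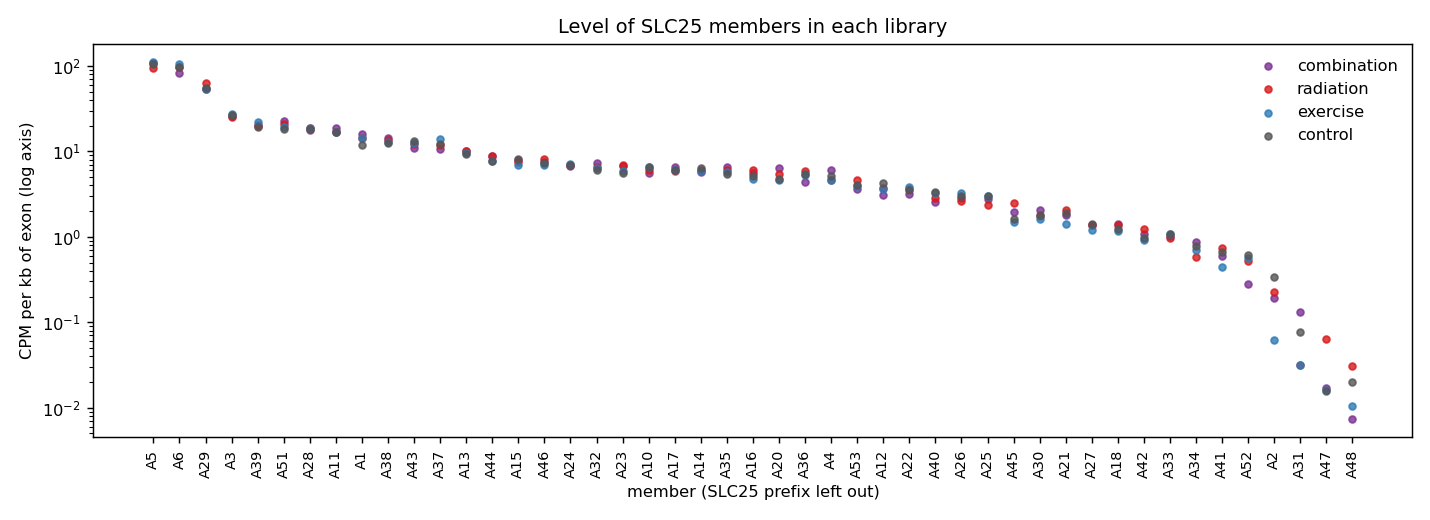
Level of the members in each library, 1 of the 48 not drawn, in CPM per kilobase of exon on a log axis, ordered by the mean over libraries. The order runs from SLC25A5 (mean 105) to SLC25A48 (mean 0.0172), and the 4 points of a member lie close together except at the low end.

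No member was at 0 reads in any library, and 4 members stayed under the minimum. SLC25A31 had 8 reads in the combination, 2 with radiation, 2 with exercise and 5 in the control. The ornithine carrier SLC25A2 had 9, 11, 3 and 17 reads in the same libraries, SLC25A47, known from liver, had 1, 4, 1 and 1, and SLC25A48 had 2, 9, 3 and 6. SLC25A2 lies on the same strand as TAF7 over 1417 bases, so its few reads cannot be assigned with certainty. The only one of these 4 genes with a ratio whose interval left out 1 was SLC25A2, at 0.182 times the control with exercise (0.0342 to 0.631).

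Over the other 44, libraries differed little. The highest CPM of a member was a median of 1.22 times its lowest, and for 40 of the 44 it was under 1.5 times. The highest value was in the combination for 12 members, with radiation for 13, with exercise for 10 and in the control for 9. The widest ranges belonged to SLC25A52, SLC25A45 and SLC25A41, and the narrowest to SLC25A28, a mitochondrial iron importer, at 1.04 times.

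Of the ANT genes, SLC25A31 was too scarce for a difference to be read. Its level was 0.244 CPM in the combination, 0.0575 with radiation, 0.0579 with exercise and 0.140 in the control, where 3 reads are worth 0.0840 to 0.0916 CPM. The radiation and exercise libraries were below that floor, and the combination and control were above it. The ratio was 4.25 over radiation with an interval of 0.848 to 41.1, 4.22 over exercise (0.842 to 40.8) and 1.74 over the control (0.503 to 6.78). Each interval includes 1, so a difference in SLC25A31 was not detectable at this depth. Its transcript had 68.3% identity with SLC25A6 over 584 aligned bases, 67.7% with SLC25A5 over 871 and 66.5% with SLC25A4 over 866. Of 10 testis germ cell markers, TNP1, PRM1, PRM2 and ODF1 were at 0 in every library. The list summed to 9.19 CPM in the combination, 6.99 with radiation, 5.35 with exercise and 6.78 in the control, mostly from SYCP3, and its part in the SLC25A31 reads was not tested.

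SLC25A4, the muscle isoform, was highest in the combination. It had 29.6 CPM (968 reads) there, 22.6 with radiation, 22.4 with exercise and 24.7 in the control. The combination was 1.31 times radiation (1.19 to 1.44), 1.32 times exercise (1.2 to 1.45) and 1.2 times the control (1.09 to 1.31). Over the control it was at 0.915 times with radiation (0.830 to 1.01) and 0.908 times with exercise (0.823 to 1.0). With total-count scaling these intervals left out 1, at 0.871 (0.790 to 0.960) and 0.886 (0.804 to 0.977). The 22 skeletal muscle markers summed to 266 CPM in the combination, 224 with radiation, 171 with exercise and 154 in the control, of which TPM2 held the most. All 22 had reads in the combination, 1 was at 0 with radiation, and 6 were at 0 with exercise and in the control, among them MYH1, MYH2 and MYH7 in the control. TPM2 alone had 177 CPM in the combination, 138 with radiation, 127 with exercise and 109 in the control. Of the 15 markers that passed the minimum, 12 were higher in the combination than in the control and 3 were lower, with TNNT1 the lowest. Against radiation, 9 of the 15 were higher in the combination and 6 were lower. Among the lower were MYH4, at 12.7 CPM against 13.9 with radiation, and TTN, at 20.7 against 26.1. The part of muscle RNA in the SLC25A4 ratios was not tested.

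SLC25A5 and SLC25A6, which make up most ANT transcripts, lay on opposite sides of 1 in the combination against radiation. SLC25A5 had 164 CPM in the combination, 143 with radiation, 167 with exercise and 158 in the control, so that radiation alone was the low library. It was 1.14 times radiation in the combination (1.10 to 1.19), while the ratio was 0.976 over exercise (0.941 to 1.01) and 1.03 over the control (0.994 to 1.07), the last turning below 1 with total-count scaling. Radiation was 0.904 times the control (0.870 to 0.940). SLC25A6 had 179 CPM in the combination, 208 with radiation, 226 with exercise and 209 in the control, and here the combination was lowest. Its ratio was 0.862 over radiation (0.833 to 0.892), 0.792 over exercise (0.766 to 0.820) and 0.857 over the control (0.828 to 0.887). SLC25A6 lies in the pseudoautosomal region, and its X and Y copies have the same sequence. SLC25A5 and SLC25A6 share 79.7% of the aligned bases, and SLC25A5 is overlapped by an antisense gene over 699 bases.

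**Figure D2:**
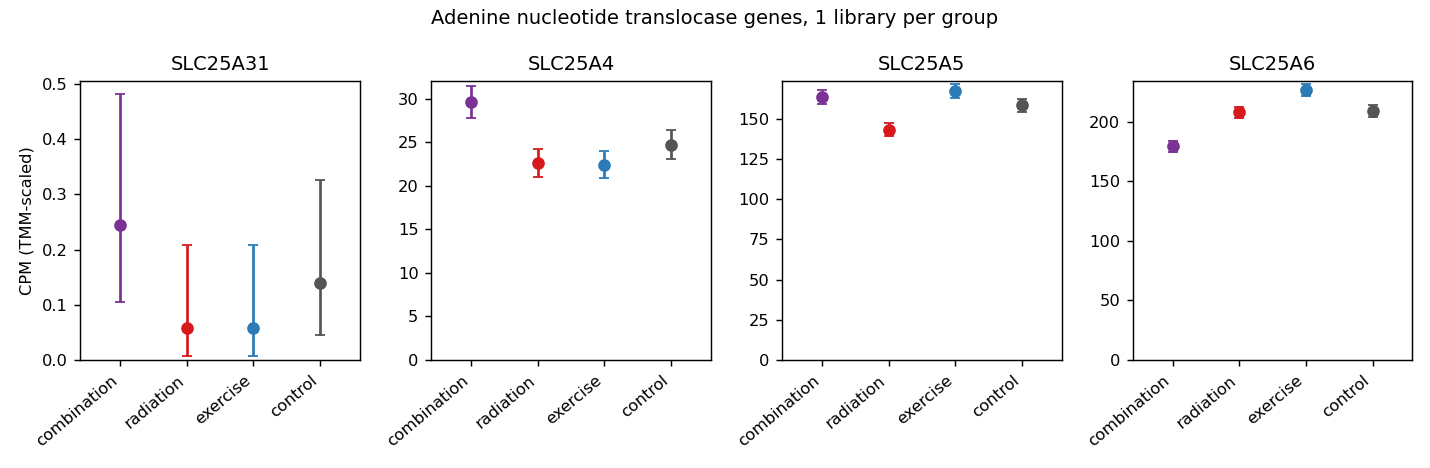
Level of the 4 ANT genes in each library, in TMM-scaled CPM on separate linear axes from 0, with exact 95% counting intervals and 1 library per group. SLC25A31 sits under 0.25 CPM with overlapping intervals, SLC25A4 is highest in the combination (29.6 CPM), SLC25A5 lowest with radiation (143 CPM) and SLC25A6 lowest in the combination (179 CPM).

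The question of what exercise adds to radiation is addressed by the combination against radiation alone. No member was 2-fold different, where 0.418% of all genes tested were 2-fold higher and 0.887% were 2-fold lower. The median log2 ratio of the 44 members was -0.03, with 19 above 0, against 0.00 for all genes. The interval left out 1 under each of 3 ways of scaling for 11 of 44 members that were higher (25%, beside 20% of all genes tested) and 10 that were lower (22.7%, beside 19.1%). Such a count rises with depth, and the mean count had a median of 835 over the members and 690 over all genes tested.

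At 1.5-fold, 1 member was higher and 1 lower, where 2.31% and 4.26% of all genes tested were. SLC25A34, an inner membrane carrier with no substrate assigned here, had 91 reads in the combination, 64 with radiation, 78 with exercise and 89 in the control. Its ratio over radiation was 1.51 (1.08 to 2.11), with radiation alone as the low library, and SLC25A34-AS1 overlaps it on the opposite strand over 1346 bases. SLC25A52, a second NAD carrier gene (chromosome 18, 31759584 to 31760880), had 12 reads in the combination, 24 with radiation, 26 with exercise and 29 in the control. The combination was 0.531 times radiation, and the interval of 0.242 to 1.10 includes 1. SLC25A52 shares 96.9% of 1144 aligned bases with SLC25A51, which had 2548 reads in the combination, so reads of the larger gene could be counted in either.

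Below 1.5-fold, the lower members in the combination had higher counts and closer intervals. SLC25A36 (chromosome 3, 140941836 to 140980995), which carries pyrimidine nucleotides into mitochondria, had 44.7 CPM in the combination, 61.4 with radiation, 54.1 with exercise and 55.7 in the control. The ratio over radiation was 0.728 (0.681 to 0.778). SLC25A45 (chromosome 11, 65375192 to 65383701), with no substrate assigned here, had 15.3 CPM in the combination, 19.7 with radiation, 11.7 with exercise and 12.7 in the control. Here the combination was 0.776 times radiation (0.690 to 0.872) and still 1.21 times the control (1.06 to 1.37), so it lay between radiation and the unirradiated libraries. SLC25A53, another member with no substrate assigned here, was 0.789 times radiation (0.720 to 0.865) and overlaps ZCCHC18 on the opposite strand over 3716 bases. SLC25A12 (aralar), which exports aspartate in the malate-aspartate shuttle, was 0.831 times radiation (0.740 to 0.932).

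Among members that were higher than with radiation, SLC25A4 came next after SLC25A34, followed by SLC25A20. SLC25A20 (chromosome 3, 48856926 to 48898882), the carnitine-acylcarnitine carrier that brings fatty acids to beta-oxidation, had 12.7 CPM in the combination, 10.8 with radiation, 9.17 with exercise and 9.44 in the control. It was 1.18 times radiation in the combination (1.02 to 1.36). The ATP-Mg carrier SLC25A25 was also 1.18 times radiation (1.03 to 1.35), with 13.8 CPM in the combination, 11.8 with radiation, 14.7 with exercise and 14.8 in the control. As for SLC25A5 and SLC25A34, its low library was radiation alone.

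**Figure D3:**
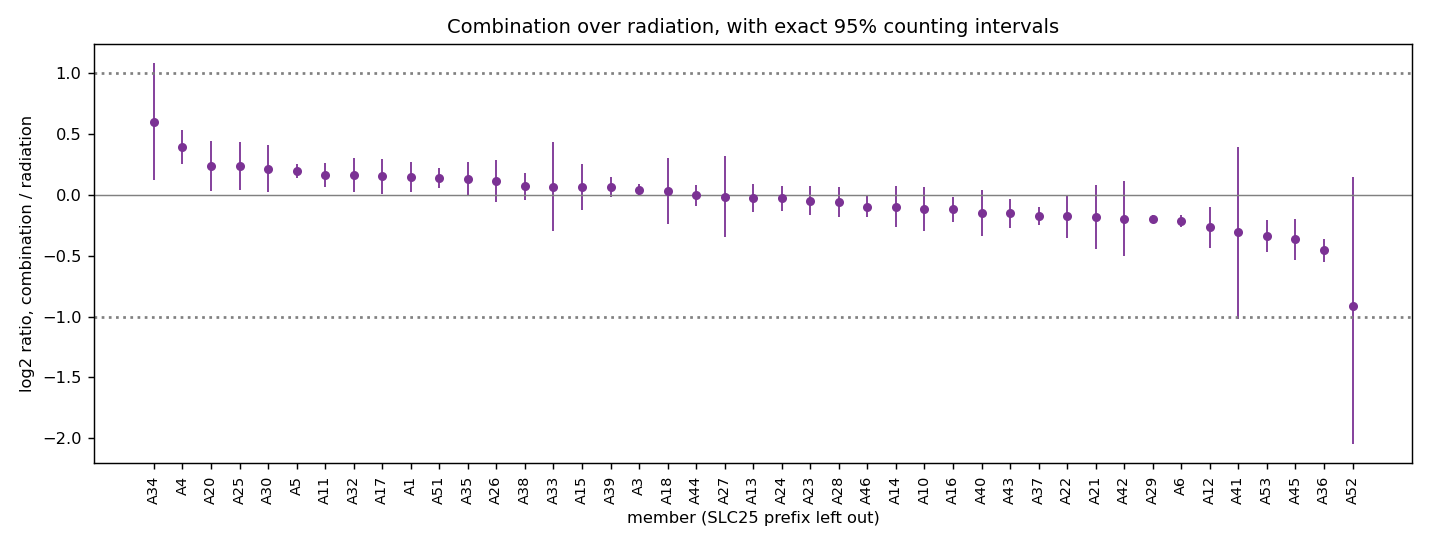
Ratio of the combination over radiation alone for the members that passed the minimum, 1 of the 44 not drawn, as log2 of the ratio of CPM with no prior count, with exact 95% counting intervals; dotted lines mark 2-fold. No point passes a dotted line, from SLC25A34 (ratio 1.51) to SLC25A52 (ratio 0.531), and the longest intervals belong to the members with fewest reads.

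Against the control, the combination had 1 member at 2-fold lower and 0 at 2-fold higher, where 1.77% and 2.27% of all genes tested were. Of all 2-fold calls over the genes tested, 56.2% were higher, or 45.4% with scaling by total counts. The member was SLC25A52, at 0.451 times the control (0.210 to 0.912), with the limit on its copy SLC25A51 given above. The median over the 44 members was -0.00 on the log2 scale, with 21 above 0, and that of all genes was -0.02. At 1.5-fold there were again 0 higher (6.12% of all genes tested) and 1 lower (6.55%). Intervals left out 1 under all 3 scalings for 10 members that were higher (22.7%, beside 18.8% of all genes) and 9 that were lower (20.5%, beside 25.5%). The sign itself depended on the scaling for SLC25A5, SLC25A28, SLC25A29 and SLC25A46, at 0.995 to 1.03 times the control with TMM and 0.944 to 0.980 times with total counts.

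The higher side of this comparison held carriers of fatty acid and citrate. SLC25A20 was 1.34 times the control (1.16 to 1.55). SLC25A1, the citrate carrier that supplies the cytosol with acetyl units, had 33.2 CPM in the combination, 30.1 with radiation, 30.3 with exercise and 25.1 in the control, and its control library was the lowest. The ratios over the control were 1.32 in the combination (1.21 to 1.45), 1.2 with radiation (1.10 to 1.31) and 1.21 with exercise (1.10 to 1.32), which share the same control library. SLC25A51, the mitochondrial NAD carrier, had 77.8 CPM in the combination, 70.7 with radiation, 65.9 with exercise and 62.3 in the control, a ratio of 1.25 for the combination over the control (1.18 to 1.32).

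The lower side held aralar and a carrier linked to glutathione. SLC25A12 had 16.2 CPM in the combination, 19.4 with radiation, 19.0 with exercise and 22.2 in the control. Its combination library was 0.729 times the control (0.652 to 0.815). HAT1 lies on the opposite strand over 61235 bases of SLC25A12, and whether the counts used strand is not given in the sources used here. SLC25A40 had 12.9 CPM in the combination, 14.3 with radiation, 16.6 with exercise and 17.1 in the control. It was 0.755 times the control (0.665 to 0.856) and overlaps DBF4 over 142 bases.

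Against exercise alone, which asks what radiation adds to exercise, 1 member was 2-fold lower in the combination and 0 were 2-fold higher, beside 3.06% and 2.92% of all genes tested. It was again SLC25A52, at 0.487 times exercise (0.224 to 1.0), and the call was lost with median-of-ratios scaling. At 1.5-fold the counts were the same, 0 higher beside 7.66% of all genes and 1 lower beside 8.33%. The median of the members was 0.10 on the log2 scale with 24 above 0, against -0.02 for all genes. Intervals left out 1 under all 3 scalings for 13 members that were higher (29.5%, beside 22.9% of all genes) and 11 that were lower (25%, beside 27.7%). SLC25A20 was the highest member, at 1.38 times exercise (1.19 to 1.6), and SLC25A4 and SLC25A45 were at 1.32 and 1.31 times. SLC25A41, an ATP-Mg carrier gene with 32 reads in the combination, 42 with radiation, 25 with exercise and 39 in the control, was at 1.35 times (0.775 to 2.38), and its interval includes 1. On the lower side, SLC25A37 (mitoferrin-1), an iron importer known best from red cell precursors, had 86.0 CPM in the combination, 97.2 with radiation, 113 with exercise and 98.6 in the control. The combination, its lowest library, was 0.760 times exercise, its highest (0.724 to 0.798).

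Radiation alone against the control gave 0 members at 2-fold in either direction, beside 1.89% of genes tested 2-fold higher and 0.897% lower. Of all such calls, 67.8% were higher, or 57.6% with total-count scaling. The members' median was 0.01 with 23 above 0, and that of all genes 0.00. Intervals left out 1 under all 3 scalings for 8 members on each side (18.2%, beside 16.9% of all genes higher and 22.7% lower). At 1.5-fold, 1 member was higher (5.77% of all genes) and 0 were lower (4.35%). SLC25A45 was that member, at 1.55 times the control (1.38 to 1.75). Next came the CoA carrier SLC25A42 at 1.29 times (1.04 to 1.6), with 5.64 CPM against 4.37 in the control, although with total-count scaling its interval included 1. SLC25A23, which exchanges ATP-Mg for phosphate, was 1.24 times (1.13 to 1.35), with 33.7 CPM against 27.3 in the control. On the lower side were SLC25A34 at 0.738 times (0.527 to 1.03) and SLC25A25 at 0.792 (0.695 to 0.903).

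In exercise alone against the control, at 2-fold, 0 members were higher (0.83% of all genes) and 0 lower (0.701%). At 1.5-fold there were also 0 higher (3.84%) and 0 lower (3.21%) on the log2 scale used. The median was -0.02 with 19 of 44 above 0, against 0.00 for all genes, and intervals left out 1 under all 3 scalings for 4 members on each side (9.09%, beside 15.8% of all genes higher and 17.8% lower). SLC25A1 was the highest at 1.21 times. SLC25A37 was at 1.15 times (1.10 to 1.2) and SLC25A39 at 1.13 times (1.07 to 1.19), with 77.4 CPM against 68.5 in the control. SLC25A41 was lowest at 0.662 times, with an interval of 0.384 to 1.12. Then came SLC25A21, the oxodicarboxylate carrier of lysine breakdown, with 5.27 CPM against 7.06 in the control, a ratio of 0.746 (0.613 to 0.907). The ornithine carrier SLC25A15 was at 0.842 times (0.741 to 0.957).

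Sorted by the substrate they carry, no group had a median near 2-fold. Which groups are described was decided with their values known, and those of at least 3 members that all lay on the same side of 0 in a comparison come first. The 3 ANTs that passed the minimum were all below 0 with radiation against the control, with a median log2 ratio of -0.13. Only the interval of SLC25A5 left out 1 there, as SLC25A6 was at 0.994 times (0.963 to 1.03) and SLC25A4 at 0.915 times (0.830 to 1.01). The 3 CoA carriers SLC25A16, SLC25A17 and SLC25A42 were all above 0 in the combination against the control (median 0.10) and against exercise (median 0.23), which share the combination library. Their intervals over the control each include 1, and over exercise only that of SLC25A16 leaves it out. Against radiation 1 of the 3 was above 0 (median -0.12), and with exercise against the control 0 were (median -0.07). The 4 iron and glutathione carriers SLC25A28, SLC25A37, SLC25A39 and SLC25A40 were all below 0 in the combination against exercise, with a median of -0.23. The interval of SLC25A28 includes 1 there. The 3 relatives of the uncoupling proteins, SLC25A14, SLC25A27 and SLC25A30, were all below 0 with exercise (median -0.16) and with radiation (median -0.05) against the control. Each of these intervals includes 1, and both comparisons share the control library. In the combination against the control 1 of the 3, SLC25A30, was above 0 (median -0.07). Amino acid carriers, the largest group, were split, with 4 of the 8 that passed the minimum above 0 in the combination against the control and a median of 0.05. The widest group was that of nucleotide, cofactor and NAD carriers, which ran to 0.32 for SLC25A51 and -1.12 for SLC25A52 in the combination against the control. Over the 5 comparisons, 47.8% to 50.4% of all genes tested were above 0. These groups hold 1 to 9 genes each, and their counts are descriptions.

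**Figure D4:**
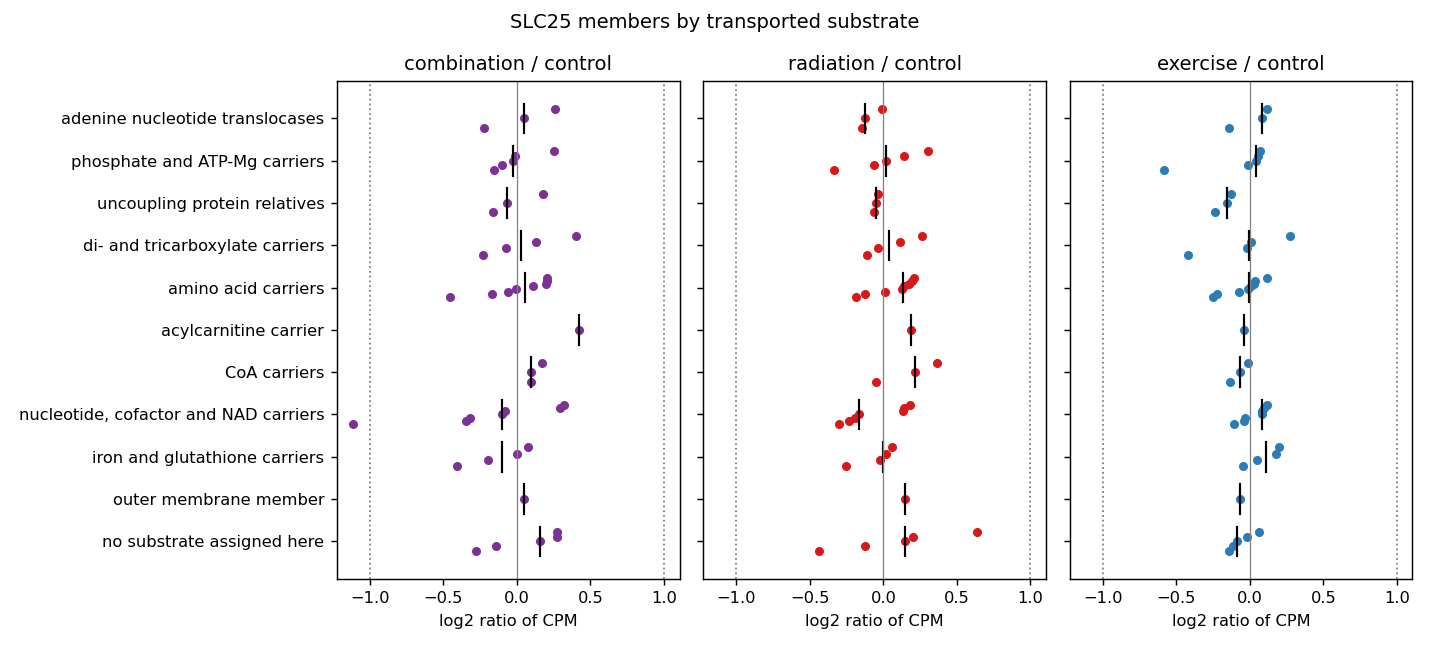
Log2 ratio of CPM over the control for the 44 members in groups by transported substrate, in the combination, with radiation and with exercise; points are genes, black bars are group medians and dotted lines mark 2-fold. SLC25A52 (-1.12 in the combination) is the only point past a dotted line.

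The design crosses exercise with radiation, so each agent can be read in 2 pairs of libraries that share none. For radiation these are the combination over exercise and radiation over the control. Of the 44 members, 31 (70.5%) had the same direction in both pairs, where 67.2% of all genes tested did. Intervals left out 1 in both pairs and under all 3 scalings for 10 members with the same direction (22.7%, beside 23.9% of all genes) and for 0 with opposite directions (beside 2.54%). SLC25A45 was at 1.31 and 1.55 times, SLC25A51 at 1.18 and 1.14, and SLC25A23 at 1.14 and 1.24. On the lower side SLC25A40 was at 0.779 and 0.839 times. SLC25A36 was at 0.826 times on top of exercise and 1.10 times without it, and with total-count scaling the interval of the second included 1.

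For exercise the pairs are the combination over radiation and exercise over the control. Here 24 members (54.5%) had the same direction, beside 50.3% of all genes. Intervals left out 1 in both pairs and under all 3 scalings for 3 members with the same direction (6.82%, beside 8.15% of all genes) and 2 with opposite directions (4.55%, beside 7.84%). SLC25A1 (1.10 and 1.21 times) was higher in both, and SLC25A12 (0.831 and 0.857) and the CoA carrier SLC25A16 (0.920 and 0.913) were lower in both. SLC25A6 was at 0.862 times on top of radiation and 1.08 times without it, and SLC25A37 at 0.885 and 1.15 times. With 1 library in each cell of the design, whether these ratios differ between the pairs was not tested.

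**Figure D5:**
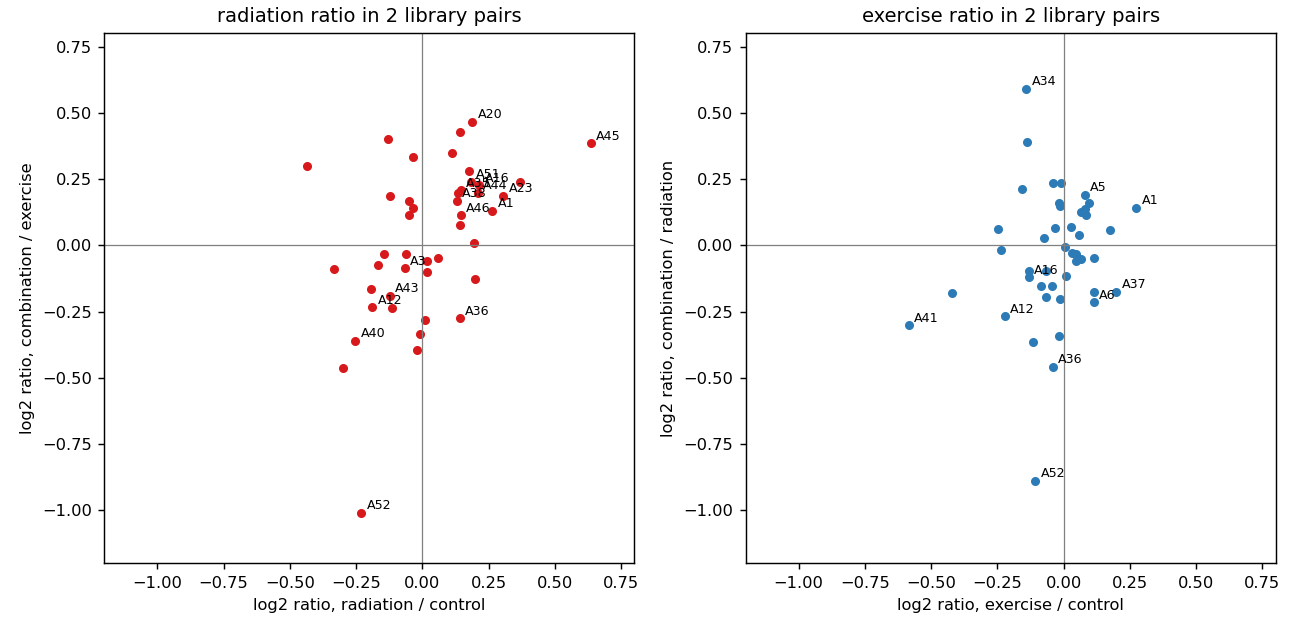
Log2 ratio of each agent in both pairs of libraries for the 44 members, on the same scale (SLC25 prefix left out of the names). For radiation (left) 31 members share a direction and SLC25A45 is farthest to the right (0.64), and for exercise (right) 24 members do.

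The family can be set beside other genes of the mitochondrial membranes, from lists chosen with earlier results of these data known. Of 78 nuclear OXPHOS subunits that passed the minimum, 69 (88.5%) were above 0 in the combination against radiation, with a median log2 ratio of 0.11. The carriers had 19 of 44 (43.2%) and -0.03, and 50.1% of all genes tested were above 0. Of 78 mitochondrial ribosomal protein genes, 65 (83.3%) were above 0 as well, with a median of 0.10. Against the control the subunits had 62 of 78 above 0 in the combination (median 0.10), beside 47.8% of all genes tested. With radiation they had 39 of 78 (median 0.00), beside 50.1%. Among 21 inner membrane carriers and channels outside the SLC25A names, 0 were 2-fold different in any of the 5 comparisons. Of all genes tested, 0.418% to 3.06% were, counted in each direction. UCP2 is an uncoupling protein that belongs to the carrier family by sequence but not by the naming rule. Its ratio over the control was the highest of the 21 in both irradiated libraries. UCP2 had 75.8 CPM in the combination, 79.1 with radiation, 43.5 with exercise and 47.8 in the control. The pore and outer membrane list of 19 genes had 1 at 2-fold higher in the combination against the control, beside 2.27% of all genes tested. That was the p53 target BAX, with 122 CPM in the combination, 112 with radiation, 43.6 with exercise and 41.5 in the control. HK2, a hexokinase that docks on mitochondria, joined it with radiation, at 2.22 times the control (1.97 to 2.50). That made 2 of 19, beside 1.89% of all genes tested. The highest ratio over the control of an SLC25 member past the minimum was 1.55, for SLC25A45 with radiation, while BAX reached 2.93 in the combination (2.76 to 3.11).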

How the data were processed

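Xenograft RNA was analysed as 1 library for each of 4 groups, assigned from the sample labels. Libraries were polyA-selected and stranded, and the authors aligned trimmed reads with Bowtie2 2.3.4.1 (build GRCh38) and deposited read counts per gene from featureCounts 1.6.0. Bowtie2 does not place reads across introns. Strand setting, mouse reads and tumor pooling: not given in the sources used here. Deposited FPKM were made by the authors with a length that equalled the gene span, introns included, for most members. Whether the counts also took in reads over introns is not given in the sources used here. Levels between genes were taken from counts per kilobase of GENCODE v29 exon, which is the wrong length if introns were counted.

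Counts were scaled by TMM (edgeR 4.0.16, R 4.3.3; factors 0.980 in the combination, 0.982 with radiation, 1.01 with exercise and 1.03 in the control) with a prior of 0.5 counts on the log2 scale. Calls of 2-fold use this log2 ratio, while printed ratios have no prior. With 1 library per group no test was run. Intervals were computed with scipy 1.17.1 in python 3.11.15. A count of 0 allows up to 3 counts. Identity between transcripts came from blastn 2.17.0, and sequences and coordinates from RefSeq (GRCh38.p14). Named were the 4 ANTs, members at 2-fold, the 3 highest and 3 lowest of each comparison, the 5 with most reads per kilobase and members of a described substrate group. SLC25A53 and the members under the minimum were named after their values were seen. Of the lists outside the family, at most the 2 highest and 2 lowest are named. The members and lists were chosen with earlier results of these data known, and the motifs after the windows were seen. Alternatives were median-of-ratios and total-count scaling, priors of 2 and 0.1, no minimum and a minimum of 100, a 1.5-fold threshold, FPKM with 0.1 added, and the sum without SLC25A29. Pseudogenes of members were not analysed here. The values of 1 member are not reported here by name, though it is counted in the sums, counts and medians.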

Additional observations from a re-analysis of the deposited data

Results flagged for a closer look

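For 3 members an agent had opposite directions in its 2 pairs of libraries, with a counting interval that left out 1 in each pair under TMM scaling. Under all 3 scalings, 2 members stayed for exercise (4.55%, beside 7.84% of all genes tested) and 0 for radiation (beside 2.54%). So such cases were no more common in the family than among all genes. The exercise log2 ratio of SLC25A6 was 0.33 lower on top of radiation than without it (a difference of -0.33), and that of SLC25A37 differed by -0.38. The radiation log2 ratio of SLC25A36 differed by -0.42 between the pair with exercise and the pair without. Each pair is 1 library against 1 library, and these differences were not tested. With total-count scaling, the interval of SLC25A36 for radiation over the control included 1.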

How the results depend on the processing

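No interval of a median was computed. The medians of the members stayed, under every alternative, within the counting limits of the genes nearest the reported median. Such limits, 0.917 to 1.09 for SLC25A28 in the combination against the control, can hold a shift of a whole library. So this check cannot show whether the medians depend on the processing. Of 625 values of named members, 600 stayed within their counting interval, 12 moved with total-count scaling and 13 with FPKM. Members at 2-fold were few and of low counts. Lower in the combination against the control were 1 as reported (SLC25A52), 2 with no minimum and 0 with a minimum of 100 or with FPKM. Against exercise, the 1 lower member became 0 with median-of-ratios scaling, a prior of 2, a minimum of 100 or FPKM, and with no minimum 2 were higher. Against radiation, no minimum gave 1 higher and 2 lower, and the 1.5-fold threshold 1 higher and 1 lower. For radiation against the control, no minimum gave 1 higher and 1 lower, and 1.5-fold gave 1 higher. For exercise against the control, no minimum gave 2 lower. The members added without a minimum were SLC25A2, SLC25A31, SLC25A47 and SLC25A48, at 1 to 17 reads per library. With total-count scaling the summed ratio was 0.947 for the combination against the control and 0.948 against exercise, and it turned to below 1 for radiation (0.989) and for exercise (0.998) against the control; the cause was not tested. Without SLC25A29 it was 0.985 for the combination against radiation and 1.01 for radiation against the control. No replicate could be left out and no paired analysis was possible because each group has 1 library. Depth limits most the members under the minimum, then SLC25A52 and SLC25A41.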
